A study of Homo sapiens with 8 samples.

Results

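A set of 10 regulators of the integrated stress response and the unfolded protein response were followed across drug treatments of SupB15, an established cell line from a Philadelphia chromosome-positive pre-B acute lymphoblastic leukemia. The members were chosen by gene symbol, with earlier results of these data known. ATF4, CEBPB, DDIT3, TRIB3, ASNS, CHAC1, DDIT4 and PPP1R15A form an ATF4 arm of 8 genes, and ERN1 and XBP1 an IRE1-XBP1 arm of 2 genes. These are 10 of the 16608 genes that had counts in all 8 libraries, and all 10 passed the filter on low counts. RNA was sequenced from cells given 1035 at 2 µM for 46 h, doxorubicin (Doxo) at 0.1 µM for 10 h, 1035 at 2 µM for 36 h and then doxorubicin at 0.1 µM for 10 h (1035+Doxo), or the solvent DMSO for 46 h. Each treatment had 2 independent samples, and the cells of all groups came from 1 line grown in IMDM with 20% serum. The series title names an HDAC inhibitor, a drug that blocks the removal of acetyl groups from histones, as the agent beside doxorubicin, which traps topoisomerase II on DNA. The doxorubicin groups had the drug for 10 h and the DMSO group had solvent for 46 h, so drug and length of exposure cannot be told apart in doxorubicin against DMSO. The combination had 36 h of 1035 before doxorubicin, and no time with solvent is given for the Doxo group. Drug and length of exposure thus cannot be told apart in 1035+Doxo against Doxo or in the interaction either. In 1035+Doxo against 1035, 36 h of 1035 before doxorubicin stood against 46 h of 1035. No source used here tells whether the cells of the combination were still exposed to 1035 while they had doxorubicin.

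In the integrated stress response, kinases that sense amino acid shortage, misfolded protein, double-stranded RNA or heme shortage phosphorylate the initiation factor eIF2. General translation then falls while ATF4 mRNA is translated more, and ATF4 raises transcription of genes for amino acid supply and, under lasting stress, of DDIT3 (CHOP). In the unfolded protein response of the endoplasmic reticulum (ER), the sensor IRE1, encoded by ERN1, cuts XBP1 mRNA so that it encodes an active transcription factor. XBP1 is known in the B lineage for its need in antibody-secreting plasma cells. Counts per gene do not show eIF2 phosphorylation, ATF4 protein or the splicing of XBP1 mRNA.

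Letters of known response elements were looked for in the promoters given by RefSeq (GRCh38.p14), from 250 bases before to 50 bases after each gene's start, and all 10 genes had a promoter there. The searches, on both strands, covered the core of the C/EBP-ATF response element bound by ATF4 (TGATGNAA), the cyclic AMP response element (CRE, TGACGTCA), the ER stress response element (ERSE) and its second form (ERSE-II), and the unfolded protein response element (UPRE, TGACGTGG). ERSE is CCAAT, 9 bases and CCACG, and ERSE-II is ATTGG, 1 base and CCACG. Of 35116 RefSeq promoters, 3.62% held the C/EBP-ATF core, 1.85% the CRE, 0.0769% an ERSE, 0.0541% an ERSE-II and 0.729% a UPRE. Counted by gene, the shares of 27305 genes were 4.46%, 2.25%, 0.0916%, 0.0696% and 0.927%, in the same order. A match was found for 4 of the 10 genes, and parts of their promoters follow on the gene's strand, 5′ to 3′, with the matched letters in capitals. ASNS and XBP1 each have another RefSeq promoter, which held no match. For ASNS (chr7:97872409-97872528, minus strand) the C/EBP-ATF core lies from -68 to -61 relative to the start. For CHAC1 (chr15:40953252-40953470, plus strand) the core is read on the opposite strand, from -209 to -202, so its capitals are the reverse complement. PPP1R15A (chr19:48872301-48872420, plus strand) holds a CRE from -58 to -51, and XBP1 (chr22:28800570-28800689, minus strand) an ERSE from -52 to -34.
ASNS: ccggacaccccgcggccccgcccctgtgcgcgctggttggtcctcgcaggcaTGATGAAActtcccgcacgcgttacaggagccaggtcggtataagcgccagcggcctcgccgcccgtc
CHAC1: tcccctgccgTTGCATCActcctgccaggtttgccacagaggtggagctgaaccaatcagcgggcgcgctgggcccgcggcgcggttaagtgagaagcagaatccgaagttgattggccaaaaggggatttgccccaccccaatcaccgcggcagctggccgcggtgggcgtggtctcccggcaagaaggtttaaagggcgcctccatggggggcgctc
PPP1R15A: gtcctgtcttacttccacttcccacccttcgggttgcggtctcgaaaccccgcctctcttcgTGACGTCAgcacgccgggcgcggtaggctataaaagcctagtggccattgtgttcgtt
XBP1: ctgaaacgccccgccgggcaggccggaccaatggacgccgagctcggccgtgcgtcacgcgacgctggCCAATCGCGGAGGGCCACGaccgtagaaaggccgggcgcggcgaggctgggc
The other 6 members held none of these letters in this window, which does not cover sites further away. A match in letters is a description and no measure of binding. The ASNS and CHAC1 promoters that hold the C/EBP-ATF core belong to genes that fell after 1035, and the PPP1R15A and XBP1 promoters to genes that rose, as described next. Among the members without a match, ATF4, DDIT3 and TRIB3 fell and DDIT4 and ERN1 rose. A link between letters and direction was not tested.

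1035 split the 10 genes. Against DMSO, XBP1, ERN1, DDIT4 and PPP1R15A rose and ATF4, DDIT3, TRIB3, CHAC1 and ASNS fell, which left CEBPB (edgeR quasi-likelihood test, Benjamini-Hochberg adjusted p under 0.05 over all 16320 genes tested). The share of all tested genes that passed was 24.2% higher and 24.8% lower, against 4 and 5 of the 10 members. Since the members were chosen with earlier results of these data known, such counts are descriptions and no independent support. The same 4 and 5 genes were called in 1035+Doxo against Doxo, where 21.8% of all genes were higher and 22.0% lower. The 2 contrasts share no library, but both come from the fit to all libraries and share its filter, scaling and estimate of the spread. In bulk RNA, fewer cells that express a gene and less of its RNA per cell cannot be told apart. Values below are normalised read counts as CPM, that is, reads scaled to a common library size after TMM normalization, and ± after a fold change is its standard error.

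**Figure D1:**
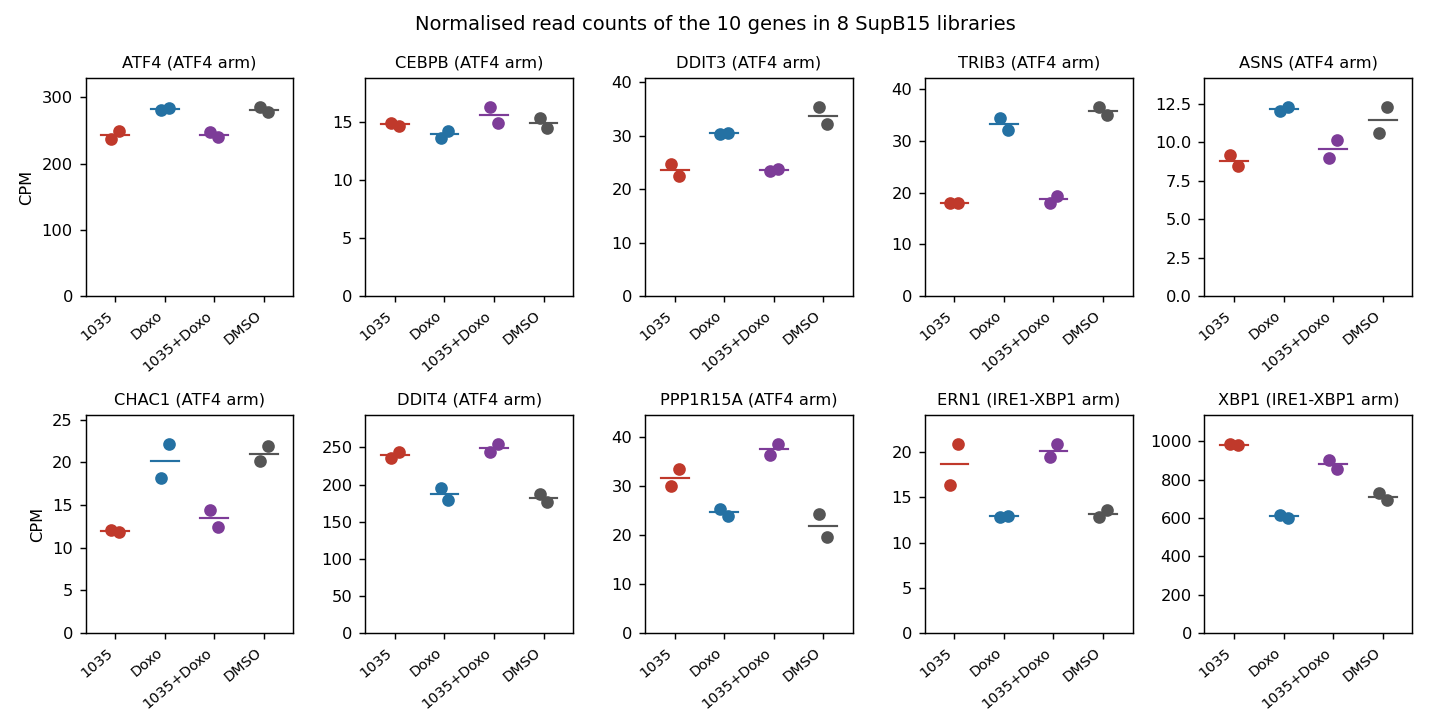
Normalised read counts (CPM, axis from 0) of the 10 genes in the 8 libraries. Points are libraries and bars the mean of the 2 libraries of a treatment; in the TRIB3 panel the 4 libraries given 1035 sit between 18.0 and 19.4 CPM, and the 4 without it between 32.2 and 36.5 CPM.

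ATF4, the transcription factor at the centre of the response, had 236.7 and 249.2 CPM with 1035, against 285.8 and 277.3 CPM with DMSO. With 1035+Doxo it had 247.7 and 239.8 CPM, against 280.7 and 283.6 CPM with Doxo. Every library given 1035 lay below every library without it. The log2 fold change was -0.21 ± 0.06 in both contrasts (adjusted p = 0.0019 for 1035 against DMSO and 0.0025 for 1035+Doxo against Doxo, edgeR), the smallest in size among the called members in each. CEBPB, which encodes a partner of ATF4, had 14.9 and 14.6 CPM with 1035 and 16.3 and 14.9 CPM with 1035+Doxo, against 13.6 and 14.2 CPM with Doxo and 15.3 and 14.5 CPM with DMSO. Its ranges overlapped in 1035 against DMSO, with a log2 fold change of -0.01 (95% interval -0.24 to 0.22). In 1035+Doxo against Doxo the log2 fold change was 0.17 (95% interval -0.06 to 0.40; adjusted p = 0.246, edgeR).

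Among the targets of ATF4 that act in stress signalling, TRIB3 moved most. TRIB3, a pseudokinase that dampens AKT and ATF4 activity, had 18.0 and 18.0 CPM with 1035, against 36.5 and 35.1 CPM with DMSO. It had 18.0 and 19.4 CPM with 1035+Doxo, against 34.3 and 32.2 CPM with Doxo. The 2 sets of 4 libraries did not overlap, and TRIB3 fell by 0.99 ± 0.09 on the log2 scale against DMSO (adjusted p = 1.3e-11, edgeR) and by 0.83 ± 0.10 against Doxo (adjusted p = 1.6e-09). DDIT3, the transcription factor CHOP that promotes cell death under lasting ER stress, had 24.8 and 22.6 CPM with 1035, against 35.4 and 32.1 CPM with DMSO. It had 23.5 and 23.8 CPM with 1035+Doxo, against 30.4 and 30.6 CPM with Doxo. DDIT3 fell by 0.51 ± 0.09 (adjusted p = 1.0e-05, edgeR) and by 0.37 ± 0.09 (adjusted p = 0.0013). DDIT3 overlaps MARS and MBD6 on the opposite strand, and the strand setting of the counting is not given, so a part of its reads may be theirs. An annotated protein-coding gene, AC022506.1, also overlaps DDIT3 on its own strand, over 2769 of 5150 bases. A known strand setting would not separate that overlap, and its part in the reads was not tested. In raw reads, not scaled to library size, MARS had 4933 and 4661 with 1035 and 4797 and 4197 with 1035+Doxo, against 7918 and 4857 with Doxo and 7093 and 6616 with DMSO. After scaling, MARS fell by 0.32 ± 0.06 on the log2 scale in 1035+Doxo against DMSO, a contrast other than the 2 above. In that same contrast DDIT3 fell by 0.52 ± 0.09 (edgeR). The part of MARS reads in the DDIT3 result was not tested.

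The 2 metabolic targets of the ATF4 arm were lower too. CHAC1, an enzyme that breaks down glutathione, had 12.0 and 11.9 CPM with 1035, against 20.2 and 21.9 CPM with DMSO. It had 14.4 and 12.5 CPM with 1035+Doxo, against 18.2 and 22.2 CPM with Doxo. CHAC1 fell by 0.82 ± 0.12 (adjusted p = 2.2e-07, edgeR) and by 0.57 ± 0.12 (adjusted p = 1.1e-04). ASNS, the asparagine synthetase, had 9.14 and 8.45 CPM with 1035, against 10.6 and 12.3 CPM with DMSO. It had 8.97 and 10.2 CPM with 1035+Doxo, against 12.0 and 12.3 CPM with Doxo. In neither contrast did the groups overlap, yet the gap between the nearest libraries was small, and ASNS fell by 0.38 ± 0.14 (adjusted p = 0.020, edgeR) and by 0.35 ± 0.13 (adjusted p = 0.032). The ASNS calls were not stable: against DMSO the adjusted p was 0.145 by DESeq2, 0.222 without DMSO replicate 2 and 0.12 without 1035 replicate 2. Against Doxo it was 0.184 by DESeq2, 0.0812 without Doxo replicate 1, 0.0821 without Doxo replicate 2 and 0.259 without 1035+Doxo replicate 1. ASNS had 104 to 215 reads per library, the lowest total of the 10 genes. An annotated processed transcript, AC079781.5, overlaps all 20425 bases of ASNS on the same strand, and its part in these reads was not tested.

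DDIT4 and PPP1R15A, also counted in the ATF4 arm, went the other way. DDIT4 (REDD1), an inhibitor of the growth kinase complex mTORC1, had 235.7 and 243.6 CPM with 1035, against 187.4 and 176.7 CPM with DMSO. It had 243.6 and 255.3 CPM with 1035+Doxo, against 195.3 and 179.5 CPM with Doxo. Each library with 1035 exceeded each library without, and DDIT4 rose by 0.40 ± 0.06 (adjusted p = 5.7e-07, edgeR) and 0.41 ± 0.06 (adjusted p = 3.3e-07) on the log2 scale. PPP1R15A (GADD34), the phosphatase subunit that reverses eIF2 phosphorylation, had 30.0 and 33.4 CPM with 1035, against 24.3 and 19.6 CPM with DMSO. It had 36.4 and 38.7 CPM with 1035+Doxo, against 25.3 and 23.9 CPM with Doxo. PPP1R15A rose by 0.53 ± 0.10 (adjusted p = 2.2e-05, edgeR) and 0.60 ± 0.10 (adjusted p = 1.7e-06). DDIT4 and CEBPB each have an annotated antisense gene, DDIT4-AS1 and CEBPB-AS1, whose reads cannot be told apart without a known strand setting.

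Both genes of the IRE1-XBP1 arm were higher with 1035. XBP1 had 989.2 and 979.0 CPM with 1035, against 729.4 and 694.3 CPM with DMSO. It had 904.9 and 856.0 CPM with 1035+Doxo, against 614.8 and 602.8 CPM with Doxo. All 4 libraries with 1035 were above all 4 without, and XBP1 rose by 0.47 ± 0.06 (adjusted p = 4.8e-09, edgeR) and 0.53 ± 0.06 (adjusted p = 3.1e-10). ERN1, the kinase and endoribonuclease that cuts XBP1 mRNA, had 16.3 and 21.0 CPM with 1035, against 12.9 and 13.6 CPM with DMSO. It had 19.4 and 20.9 CPM with 1035+Doxo, against 12.9 CPM in both Doxo libraries. ERN1 rose by 0.49 ± 0.12 (adjusted p = 5.7e-04, edgeR) and 0.64 ± 0.12 (adjusted p = 1.7e-05). The first of these rested on 1035 replicate 2, without which the log2 fold change was 0.31 (adjusted p = 0.0719).

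**Figure D2:**
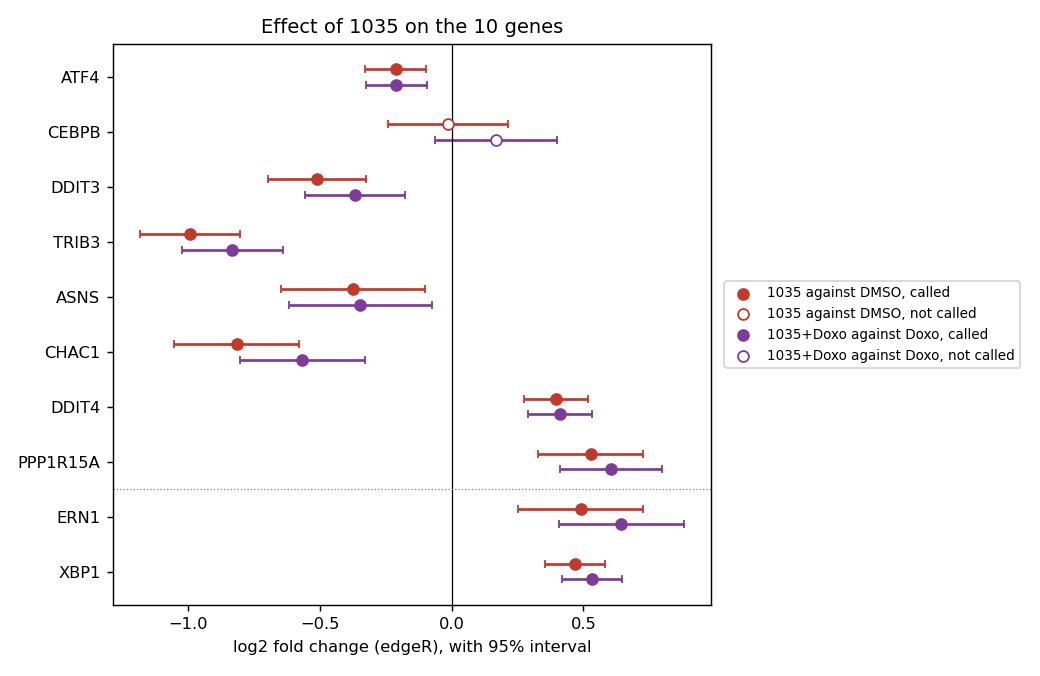
Log2 fold changes of the 10 genes (x axis, edgeR) in 1035 against DMSO and in 1035+Doxo against Doxo, with 95% intervals; filled points passed the test and open points did not. Above the dotted line are the 8 genes of the ATF4 arm and below it ERN1 and XBP1, which lie right of 0 in both contrasts together with DDIT4 and PPP1R15A.

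Whether doxorubicin changed the effect of 1035 was asked by the interaction, the log2 fold change of 1035 with doxorubicin minus that without. No member was called by edgeR (adjusted p at least 0.95 for each) or by DESeq2, and none had an unadjusted p below 0.05 by edgeR. Among all genes, 0.0184% were called, and 786 of 16320 had an unadjusted p below 0.05 (edgeR). The estimate was largest for CHAC1, at 0.25 (95% interval -0.09 to 0.59; 0.0973 without Doxo replicate 1 and 0.3886 without Doxo replicate 2), followed by CEBPB at 0.18 (-0.14 to 0.51) and TRIB3 at 0.16 (-0.11 to 0.43). The narrowest intervals were those of XBP1, 0.06 (-0.10 to 0.23), ATF4, 0.00 (-0.16 to 0.17), and DDIT4, 0.01 (-0.16 to 0.19). The interval of ASNS, 0.03 (-0.36 to 0.41), was the widest, and it includes differences between the contrasts as large as the ASNS effect itself. All 10 estimates were above 0 with all libraries, but those of ATF4, ASNS, DDIT4, PPP1R15A and ERN1 were below 0 in at least 1 of the fits that left out a library.

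The split within and between the arms can be read inside each library, where the scaling cancels. For each ATF4 read there were 4.18 and 3.93 XBP1 reads with 1035 and 3.65 and 3.57 with 1035+Doxo, against 2.19 and 2.13 with Doxo and 2.55 and 2.50 with DMSO. For each TRIB3 read there were 13.1 and 13.6 DDIT4 reads with 1035 and 13.5 and 13.2 with 1035+Doxo, against 5.69 and 5.58 with Doxo and 5.13 and 5.04 with DMSO. The PPP1R15A reads per DDIT3 read, the phosphatase subunit against the death factor, were 1.21 and 1.48 with 1035 and 1.55 and 1.63 with 1035+Doxo, against 0.832 and 0.781 with Doxo and 0.685 and 0.609 with DMSO. In each ratio the 4 libraries given 1035 lay above the 4 others, and PPP1R15A reads outnumbered DDIT3 reads in those 4 libraries and in none of the others. Reads are not scaled to gene length, which is 3097 bases for PPP1R15A and 1180 for DDIT3. Per kilobase DDIT3 stayed above PPP1R15A in every group, with 20.1 against 10.2 CPM per kb with 1035. These ratios are descriptions with no test, since the genes in them were chosen with their results known.

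**Figure D3:**
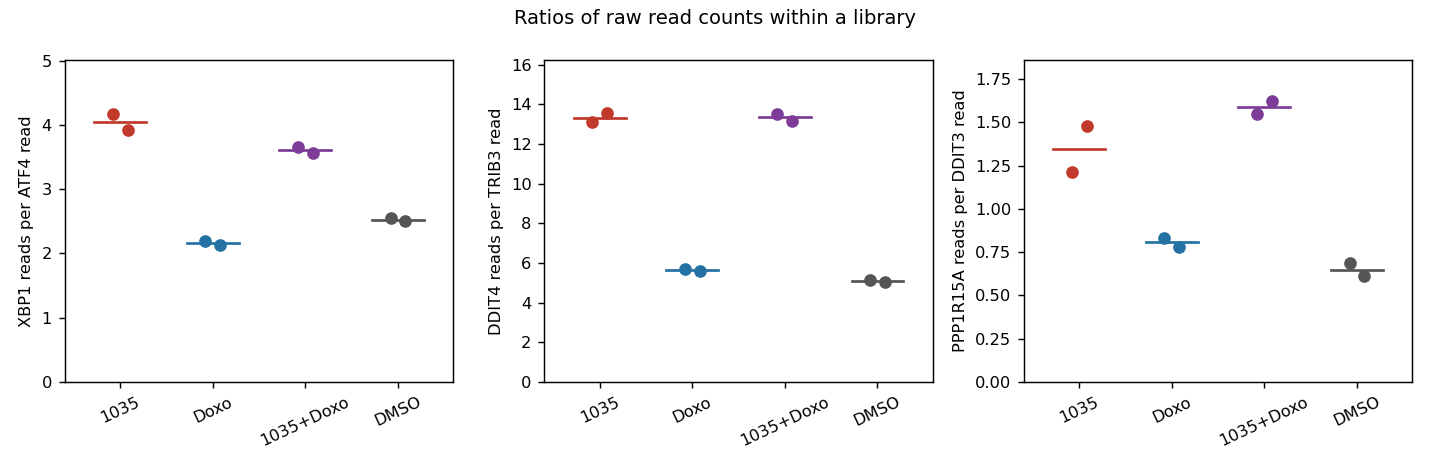
Ratios of raw read counts within a library (y axes from 0, reads of 1 gene per read of the other) for XBP1 to ATF4, DDIT4 to TRIB3 and PPP1R15A to DDIT3. Points are libraries and bars group means; the DDIT4 to TRIB3 ratio is 13.1 or above in the libraries with 1035 and 5.69 or below in the others.

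Per kilobase of the gene length implied by the deposited FPKM, XBP1 had the highest level in every group, with 324.6 ± 2.40 CPM per kb with 1035, 200.8 ± 2.80 with Doxo and 290.4 ± 11.4 with 1035+Doxo, against 234.8 ± 8.19 with DMSO (SD, n = 2). DDIT4 and ATF4 came next and changed places. DDIT4 had 116.3 ± 2.70 CPM per kb with 1035, above ATF4 at 96.5 ± 3.50, and 121.1 ± 4.01 with 1035+Doxo, above ATF4 at 96.8 ± 2.23. With Doxo DDIT4 had 90.9 ± 5.44 CPM per kb, below ATF4 at 112.1 ± 0.823, and with DMSO 88.3 ± 3.64, below ATF4 at 111.8 ± 2.39. DDIT3 followed in every group, with 20.1 ± 1.30 CPM per kb with 1035 and 28.6 ± 1.98 with DMSO. Next came PPP1R15A in both groups with 1035, at 10.2 ± 0.774 and 12.1 ± 0.518 CPM per kb with 1035 and 1035+Doxo, and TRIB3 in both groups without, at 11.3 ± 0.517 and 12.1 ± 0.353 with Doxo and DMSO. ASNS and ERN1 were the lowest in every group. In the 1035 group their levels, 1.97 ± 0.109 and 1.72 ± 0.301 CPM per kb, differed by less than the SD of ERN1. TRIB3 and CHAC1 were also neighbours within their spread in the 1035+Doxo group, at 6.34 ± 0.337 and 6.55 ± 0.675 CPM per kb, as were CEBPB and PPP1R15A in the DMSO group, at 8.09 ± 0.313 and 7.08 ± 1.08 CPM per kb.

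Doxorubicin moved few of these genes. Against DMSO only XBP1 was called among the 10, and it was lower, where 0.545% of all genes were called lower and 0.784% higher. XBP1 had 614.8 and 602.8 CPM with Doxo, against 729.4 and 694.3 CPM with DMSO, with no overlap. It fell by 0.23 ± 0.06 on the log2 scale (adjusted p = 0.031, edgeR). The call was lost without DMSO replicate 1 (adjusted p = 0.558), DMSO replicate 2 (0.157), Doxo replicate 2 (0.114) or either 1035+Doxo library (0.0572 each), and when only the 2 groups were fitted (0.0509), with log2 fold changes of -0.26 to -0.19. ATF4 differed by 0.00 (95% interval -0.11 to 0.12) in doxorubicin against DMSO, and DDIT4 by 0.04 (-0.08 to 0.17). DDIT3, with 30.4 and 30.6 CPM against 35.4 and 32.1 CPM, had a log2 fold change of -0.15 (-0.32 to 0.03; adjusted p = 0.477, edgeR). PPP1R15A, with 25.3 and 23.9 CPM against 24.3 and 19.6 CPM, had one of 0.17 (-0.03 to 0.37; adjusted p = 0.489, edgeR).

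In 1035+Doxo against 1035 no member was called (edgeR and DESeq2), and 0.496% of all genes were. An unadjusted p below 0.05 was found for 2 members, and for 1110 of all 16320 genes tested (edgeR). PPP1R15A had 36.4 and 38.7 CPM with 1035+Doxo, against 30.0 and 33.4 CPM with 1035, with no overlap and a log2 fold change of 0.24 (95% interval 0.05 to 0.44; adjusted p = 0.502, edgeR). XBP1 had 904.9 and 856.0 CPM with 1035+Doxo, against 989.2 and 979.0 CPM with 1035, with a log2 fold change of -0.16 (-0.27 to -0.05; adjusted p = 0.385, edgeR). The estimate for XBP1 was below 0 in both doxorubicin contrasts, and that for PPP1R15A above 0. The interval of ATF4 was -0.11 to 0.12 and that of DDIT4 -0.06 to 0.18.

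**Figure D4:**
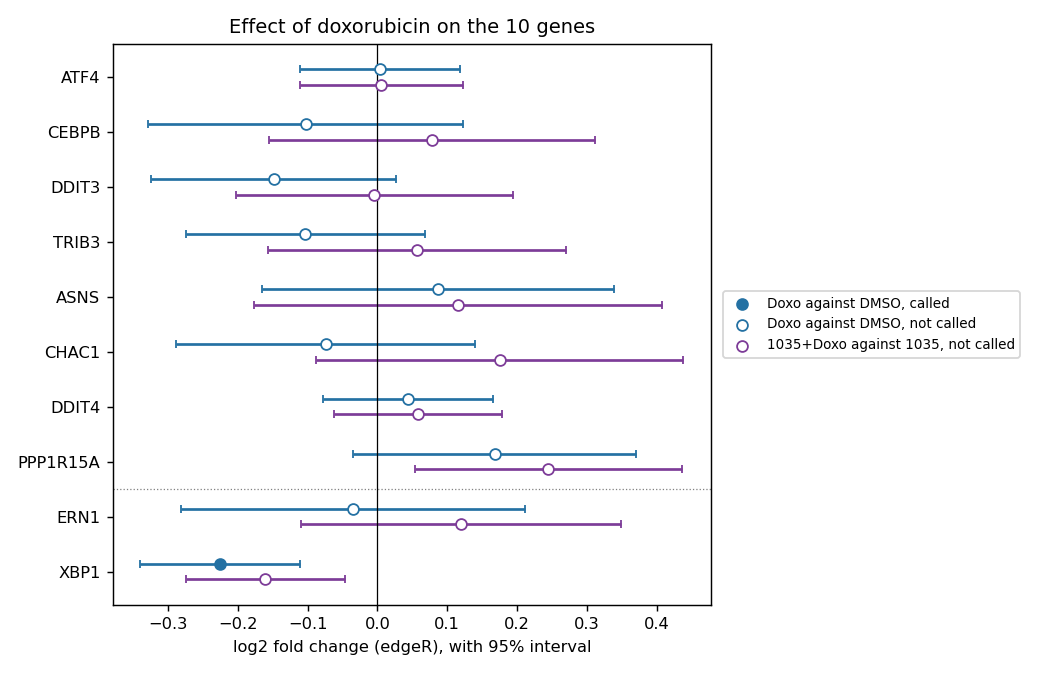
Log2 fold changes of the 10 genes (x axis, edgeR) in Doxo against DMSO and in 1035+Doxo against 1035, with 95% intervals; the filled point passed the test and open points did not. Only XBP1 in Doxo against DMSO passed, at -0.23.

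The combination against DMSO shares its libraries with the contrasts above, so its values are given beside them and not as further support. PPP1R15A had the largest rise, 0.77 ± 0.10 on the log2 scale (adjusted p = 1.3e-08, edgeR), beside 0.53 in 1035 against DMSO and 0.17 in Doxo against DMSO. ERN1 rose by 0.61 ± 0.12, DDIT4 by 0.45 ± 0.06 and XBP1 by 0.31 ± 0.06. TRIB3 fell by 0.94 ± 0.09, CHAC1 by 0.64 ± 0.12, DDIT3 by 0.52 ± 0.09 and ATF4 by 0.21 ± 0.06, the last with an adjusted p of 0.0578 without DMSO replicate 1 (edgeR). ASNS at -0.26 (adjusted p = 0.108, edgeR) and CEBPB at 0.07 (adjusted p = 0.661) were not called. In this comparison 24.5% of all genes were higher and 24.7% lower, against 4 and 4 members.

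In the authors' deposited table for 1035 against DMSO, 8 of the 10 members had an adjusted p below 0.05, 4 higher and 4 lower, with ASNS and CEBPB above it. The authors' deposited table for 1035+Doxo against Doxo had 4 higher and 3 lower, with DDIT3 at an adjusted p of 0.0536. In the authors' deposited table for Doxo against DMSO, XBP1 was the member below 0.05, with a log2 fold change of -0.21 and an adjusted p of 0.0141. Their table for 1035+Doxo against 1035 had no member below 0.05. XBP1 came nearest there, with a log2 fold change of -0.16 and an adjusted p of 0.0606, where edgeR gave 0.3855.

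The surroundings of the 10 genes were described with lists of other pathway genes. These lists, too, were chosen with earlier results of these data known, so their counts are descriptions. Median log2 fold changes over all tested genes were 0.01 or less in size in both 1035 contrasts. Upstream, 19 genes for the eIF2 kinases, eIF2, its exchange factor eIF2B and its phosphatase were tested, of which 2 rose, 9 fell and 8 were not called in 1035 against DMSO (median -0.13 on the log2 scale). In 1035+Doxo against Doxo 2 rose and 9 fell as well (median -0.14). EIF2AK4, the kinase GCN2 that senses uncharged tRNA, rose by 0.38 ± 0.06 (adjusted p = 1.2e-06, edgeR) and 0.36 ± 0.06, and EIF2S3, the gamma subunit of eIF2, by 0.18 ± 0.06 and 0.29 ± 0.06. The first call of EIF2S3 was lost without DMSO replicate 1 (adjusted p = 0.112, edgeR) or 1035 replicate 1 (0.13). EIF2S2, the beta subunit, fell by 0.50 ± 0.06 (adjusted p = 4.0e-09, edgeR) and 0.44 ± 0.06, and GCN1L1, an activator of GCN2, by 0.43 ± 0.06 and 0.39 ± 0.06.

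Of 13 tested partners of ATF4 and regulators that it induces, 3 rose, 8 fell and 2 were not called in 1035 against DMSO (median -0.63), and 3 rose and 9 fell in 1035+Doxo against Doxo (median -0.60). VLDLR, a lipoprotein receptor, had 43.5 and 40.6 CPM with 1035, against 76.1 and 76.5 CPM with DMSO. ATF5, a transcription factor related to ATF4, had 51.8 and 61.4 CPM with 1035, against 103.3 and 106.3 CPM with DMSO, and fell by 0.89 ± 0.08 in both contrasts (adjusted p = 2.3e-11 and 2.6e-11, edgeR). KLHL24, a ubiquitin ligase adaptor, and TXNIP, an inhibitor of thioredoxin and glucose uptake, rose by 0.87 ± 0.06 and 0.65 ± 0.07 against DMSO (adjusted p = 8.7e-15 and 1.4e-10, edgeR). The list thus held both directions, as the members of the ATF4 arm did.

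Most genes of amino acid supply fell. Of 20 tested genes for amino acid synthesis and transport, 18 fell by edgeR and by DESeq2, 0 rose by either, and 0 were higher at an unadjusted p under 0.05 in 1035 against DMSO (edgeR median -0.52; 1 rose without 1035 replicate 2), and 18 fell and 1 rose in 1035+Doxo against Doxo (median -0.50). PHGDH, the first enzyme of serine synthesis, had 96.9 and 105.2 CPM with 1035, against 226.3 and 216.2 CPM with DMSO, and fell by 1.13 ± 0.06 (adjusted p = 2.1e-18, edgeR). MTHFD2, a mitochondrial enzyme of one-carbon metabolism, had 234.3 and 237.5 CPM with 1035, against 477.0 and 480.6 CPM with DMSO, and fell by 1.02 ± 0.06 (adjusted p = 2.4e-17, edgeR). The gene that rose in 1035+Doxo against Doxo was CTH, which makes cysteine from cystathionine, by 0.81 ± 0.26 (adjusted p = 0.0092, edgeR), a call not made by DESeq2 or without Doxo replicate 1 or 1035+Doxo replicate 1. Of 21 tested genes in the list of cytosolic aminoacyl-tRNA synthetases, which load tRNAs with amino acids, 15 fell, 0 rose and 6 were not called (median -0.28; 0 higher at an unadjusted p under 0.05 or by DESeq2), and 14 fell and 1 rose in 1035+Doxo against Doxo (median -0.23), where 8 fell without Doxo replicate 1 or without 1035+Doxo replicate 2. XPOT, listed with them as the exporter of tRNA from the nucleus, fell by 0.81 ± 0.06 (adjusted p = 4.7e-15, edgeR) and 0.76 ± 0.06, and YARS by 0.42 ± 0.06 and 0.37 ± 0.06. RARS was the gene that rose, by 0.21 ± 0.07 in 1035+Doxo against Doxo (adjusted p = 0.021, edgeR), and it was not called by DESeq2 or without Doxo replicate 2 or 1035+Doxo replicate 1.

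Known targets of XBP1 moved in both directions, and most were not called. Of 38 tested genes of secretion and ER-associated degradation, 4 rose, 8 fell and 26 were not called in 1035 against DMSO (median -0.05), and 7 rose and 6 fell in 1035+Doxo against Doxo (median 0.03). In 1035 against DMSO 2 rose without 1035 replicate 1, and 5 fell without that library or without DMSO replicate 1; in 1035+Doxo against Doxo 2 rose without 1035+Doxo replicate 1 and 4 by DESeq2. Each of these called shares was below that of all genes. SEC24D, a coat protein of ER export vesicles, rose by 0.63 ± 0.08 (adjusted p = 9.5e-09, edgeR) and 0.61 ± 0.08. LMAN1, a cargo receptor, rose by 0.22 ± 0.06 against DMSO (adjusted p = 0.165 without 1035 replicate 1, edgeR), and SYVN1, a ubiquitin ligase of ER-associated degradation, by 0.31 ± 0.08 in 1035+Doxo against Doxo (adjusted p = 7.7e-04, edgeR). PDIA6, a disulfide isomerase, had 419.3 and 433.2 CPM with 1035, against 716.7 and 691.4 CPM with DMSO, and fell by 0.72 ± 0.06 (adjusted p = 9.4e-14, edgeR). SPCS3, a signal peptidase subunit, fell by 0.55 ± 0.06. DNAJB9, a chaperone much used as a readout of XBP1 and named here after its values were seen, had 12.8 and 11.4 CPM with 1035, against 13.6 and 14.2 CPM with DMSO (log2 fold change -0.20 ± 0.13, adjusted p = 0.204, edgeR).

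Of 9 tested genes for IRE1 partners, the ligation of XBP1 mRNA and an IRE1 substrate, 4 fell in 1035 against DMSO (median -0.16) and 3 in 1035+Doxo against Doxo (median -0.09). In both contrasts 0 rose by edgeR, by DESeq2 or at an unadjusted p under 0.05. DDX1, a helicase of the RNA ligase complex, fell by 0.37 ± 0.06 (adjusted p = 2.3e-06, edgeR) and 0.29 ± 0.06. MAP3K5, the kinase ASK1 downstream of IRE1, fell by 0.47 ± 0.09 and 0.25 ± 0.09, the second a call lost by DESeq2 (adjusted p = 0.0866) and without Doxo replicate 1 (0.381) or either 1035+Doxo library (0.116 and 0.068). BLOC1S1, whose mRNA IRE1 can cleave, had 25.8 and 26.7 CPM with 1035, against 35.9 and 36.2 CPM with DMSO, and fell by 0.46 ± 0.09 (adjusted p = 4.1e-05, edgeR) and 0.50 ± 0.09.

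The third sensor of the ER is ATF6, and the chaperones of the ER are its best known targets. Of 22 tested genes in this list, 3 rose, 11 fell and 8 were not called in 1035 against DMSO (median -0.20), and 3 rose and 9 fell in 1035+Doxo against Doxo (median -0.11). ATF6 itself rose by 0.27 ± 0.07 (adjusted p = 7.1e-04, edgeR) and 0.20 ± 0.07, and CRELD2, an ER protein induced by stress, by 0.48 ± 0.08 (adjusted p = 1.1e-06) and 0.79 ± 0.08. The call of ATF6 in 1035+Doxo against Doxo was lost by DESeq2 (adjusted p = 0.0619) and without Doxo replicate 1 (0.102) or 1035+Doxo replicate 1 (0.278). ERO1LB, an oxidase that forms disulfides, rose by 0.23 ± 0.07 in 1035+Doxo against Doxo (adjusted p = 0.0065, edgeR). PDIA3, a disulfide isomerase for glycoproteins, fell by 0.52 ± 0.06 (adjusted p = 3.7e-09, edgeR) and 0.36 ± 0.06, and MANF, a secreted ER stress protein, by 0.62 ± 0.09 and 0.39 ± 0.09. HYOU1, a large ER chaperone, fell by 0.33 ± 0.06 and 0.39 ± 0.06, and CALR, the calcium-binding chaperone calreticulin, by 0.38 ± 0.06 and 0.33 ± 0.06. HSPA5 (BiP), the main ER chaperone and named here after its values were seen, had 80.8 and 74.6 CPM with 1035, against 106.3 and 94.7 CPM with DMSO, and fell by 0.37 ± 0.07 (adjusted p = 3.2e-05, edgeR).

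**Figure D5:**
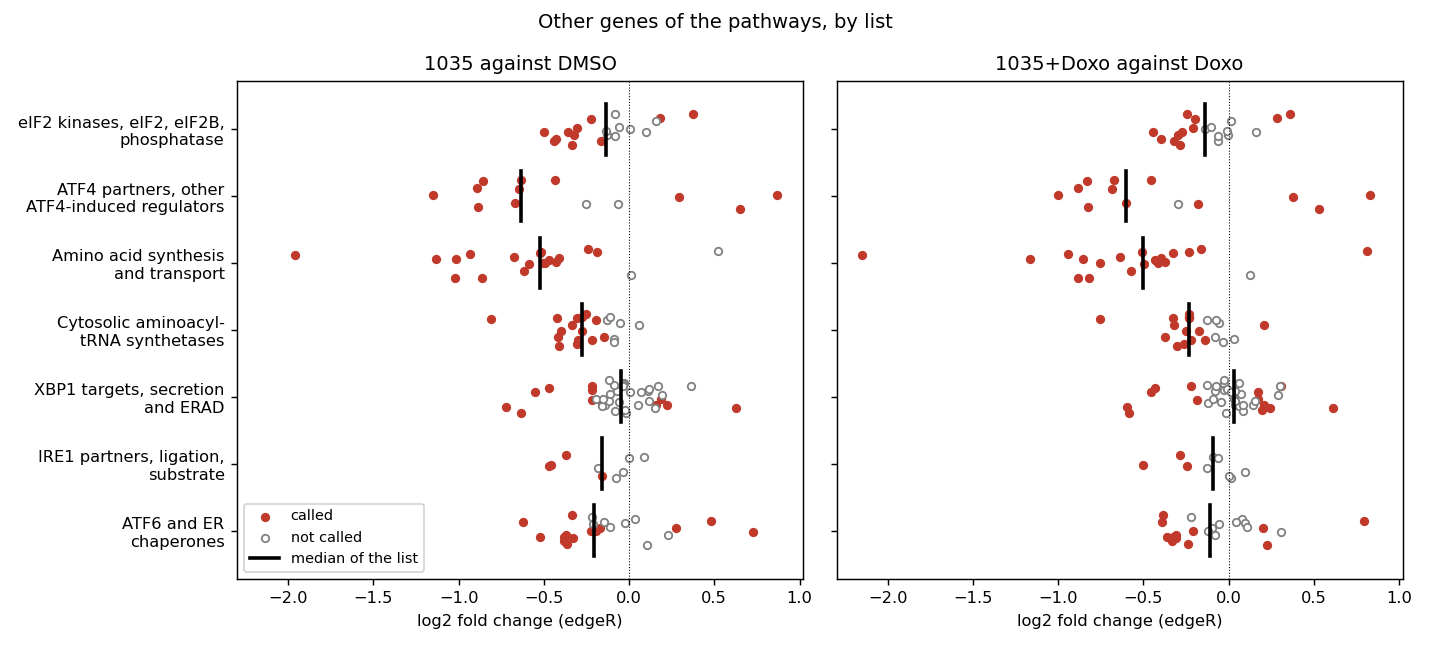
Log2 fold changes (x axes, edgeR) of the other genes of the pathways, 1 row per list, in 1035 against DMSO (left) and 1035+Doxo against Doxo (right). Points are genes, filled where called, and the black bar is the median of the list, which is lowest for the partners of ATF4 (-0.63 and -0.60) and for amino acid synthesis and transport (-0.52 and -0.50).

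With doxorubicin, 5 genes of these lists were called against DMSO, where 0.784% of all genes were called higher and 0.545% lower. ATF3, a stress-induced transcription factor that ATF4 and DNA damage can both raise, had 12.9 and 12.8 CPM with Doxo, against 8.03 and 7.67 CPM with DMSO. It rose by 0.71 ± 0.13 (adjusted p = 0.0014, edgeR), and DESeq2 gave it no adjusted p in this comparison. It also rose in 1035+Doxo against 1035, by 0.67 ± 0.15 (adjusted p = 0.015, edgeR), where no other gene of the lists was called and DESeq2 gave it an adjusted p of 0.282. That second call was also lost without either 1035 library or either 1035+Doxo library (adjusted p of 0.057 to 0.59, edgeR). EIF2AK3, the ER-bound eIF2 kinase PERK, fell by 0.27 ± 0.06 against DMSO (adjusted p = 0.017, edgeR). PDIA6 fell by 0.30 ± 0.06 (adjusted p = 0.0019, edgeR), and the chaperones HSPA13 and HSP90B1 by 0.29 ± 0.07 and 0.22 ± 0.06 (adjusted p = 0.034 for each). Without DMSO replicate 1 all 4 of these lower calls were lost (adjusted p of 0.197 to 0.51, edgeR), and without DMSO replicate 2 those of EIF2AK3 (0.0658), HSPA13 and HSP90B1 (0.223 each). HSPA13 and HSP90B1 were also lost without Doxo replicate 2 (0.342 and 0.286) and with only the 2 groups fitted (0.0507 and 0.061), HSPA13 by DESeq2 (0.0661), and HSP90B1 without either 1035+Doxo library (0.0675 and 0.0694). In the interaction 0 genes of the lists were called by edgeR or DESeq2. An unadjusted p under 0.05 was found for 3 of the 38 XBP1 targets and 2 of the 22 genes of the ATF6 list, all with positive estimates (edgeR). Among all genes tested, 786 of 16320 had such a p, so these counts are descriptions and no sign of a pathway effect.

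Markers of the labelled cell type were present: 13 of 14 precursor B markers had counts in all tables, and RAG1 had the highest mean over the 8 libraries, with DNTT above it in the Doxo and DMSO groups and IGLL1 in the DMSO group. Their summed level was 3845 and 3828 CPM with 1035, 4688 and 4883 CPM with Doxo and 3689 and 3577 CPM with 1035+Doxo, against 5075 and 4880 CPM with DMSO. They moved in both directions: in 1035 against DMSO 3 rose (CD22, CD79A and CD79B) and 7 fell, among them IGLL1 by 1.80 ± 0.07 and DNTT by 0.88 ± 0.06 (log2, edgeR; both named after their values were seen). Plasma cell markers, which count XBP1 itself, had counts for 8 of 10, without SDC1 and SLAMF7, and summed to 1998 and 1967 CPM with 1035, 1557 and 1605 with Doxo and 1850 and 1763 with 1035+Doxo, against 1768 and 1738 with DMSO. Without XBP1 the other 7 summed to 1009 and 987.6 CPM with 1035, 942.5 and 1002 with Doxo and 944.8 and 907.0 with 1035+Doxo, against 1038 and 1044 with DMSO, and with XBP1 counted 3 of the 8 rose and 3 fell in 1035 against DMSO. Of 9 stromal markers, 4 had counts, led by PDGFRB, with sums of 127.5 and 141.7 CPM with 1035, 54.6 and 59.6 with Doxo and 122.5 and 126.8 with 1035+Doxo, against 57.4 and 53.6 with DMSO. Myeloid markers had counts for 5 of 10 and summed to 34.8 and 42.3 CPM with 1035, 24.4 and 28.3 with Doxo and 34.0 and 35.4 with 1035+Doxo, against 26.8 and 26.7 with DMSO. T and NK cell markers had counts for 2 of 10 and summed to 37.6 to 53.6 CPM over the 8 libraries. These levels moved with 1035 and their part in the results above was not tested. The reads on the 16608 shared genes ranged from 11760542 to 18144670 per library.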

How the data were processed

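The data are 8 total RNA libraries of SupB15 cells from 4 treatments, each with 2 samples. Per the labels' protocols, libraries were stranded and depleted of ribosomal RNA, and single reads were taken. Per the submitters' processing notes, Novoalign 2.08.01, DESeq2 1.4.5 and hg19 were used. No source used here gives the read counter, whether it used strand, or the annotation.

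Each of the 4 tables that the authors deposited compares 2 groups, and its Counts columns hold unnormalized read counts, per the file headers. The deposited FPKM values served only to recover the gene length behind them, scaled by the authors to gene length and library reads. The log2 fold changes and the adjusted p-values of the authors' deposited tables are quoted for the 10 genes and enter no test.

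The tables were joined on the Ensembl identifier. Where 2 tables gave a count for the same gene and library, 132880 times, the values matched exactly, and 16608 of 17849 genes had counts in all 8 libraries. The filter of edgeR 4.0.16 (R 4.3.3) kept 16320 of these. Counts were scaled by TMM and fitted to all 8 libraries with 4 group means by the robust quasi-likelihood model, with 4 residual degrees of freedom and a common biological coefficient of variation of 4.57%. P-values were two-sided, and the Benjamini-Hochberg adjustment ran over all 16320 genes within each comparison, with calls at 0.05. The fit was tested on simulated data. Depth ranged from 11760542 to 18144670 reads. The design text calls the 2 samples of a treatment independent and does not say how, so p-values measure the spread between these samples. That spread is not each gene's own alone, since the model draws it toward that of all genes tested. The p-values and 95% intervals thus rest on more than the 4 residual degrees of freedom.

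The members and the gene lists were chosen with earlier results of these data known. All members are named. From each list, the 2 genes with the smallest p among those higher and among those lower in a comparison are named. Alternatives were DESeq2 1.42.0, its size factors, the likelihood ratio test, other filters, fits of 2 groups, a replicate block and each library left out. Promoter sequences are those of RefSeq (GRCh38.p14), and the counts rest on hg19.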

Additional observations from a re-analysis of the deposited data

How the results depend on the processing

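Over 943 alternative values of the 10 genes' fold changes, 925 kept their side of the threshold, 18 lost a call in the same direction and no call reversed. The 943 include results that were not called with all libraries, which had no call to lose. They also include fits that left out a library outside the contrast. DESeq2 gave no adjusted p to 7 members in Doxo against DMSO, which are not among the 943. The lost calls were those of ASNS, ERN1, XBP1 and ATF4 named with their libraries in the report. With 1035 replicate 2 and Doxo replicate 2 left out together, an alternative chosen after seeing the data, the adjusted p was 0.0975 for ASNS and 0.0529 for ERN1 in 1035 against DMSO and 0.067 for ASNS in 1035+Doxo against Doxo (edgeR). With 1 library left out, 3 to 4 members were called higher in 1035 against DMSO and 4 in 1035+Doxo against Doxo, and 4 to 5 were called lower in each.

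Counts in the doxorubicin contrasts were less stable. In Doxo against DMSO, 128 genes were higher and 89 lower, which became 76 and 58 with only the 2 groups fitted, and 57 were higher by DESeq2, whose own filter left 11592 genes without an adjusted p, ATF3 among them. With 1 library left out these ranged over 28 to 634 and 5 to 546, the low ends without DMSO replicate 1 and the high ends without Doxo replicate 1. Members lower (1) became 0 with only the 2 groups fitted and 0 to 1 with 1 library left out. Pathway genes higher (1) were 0 by DESeq2 and 1 to 6 with 1 library left out. Pathway genes lower (4) were 2 with only the 2 groups fitted, 2 without both libraries and 0 to 16 with 1 left out. In 1035+Doxo against 1035, 57 genes were higher and 24 lower, against 93 and 58 with only the 2 groups fitted, and 29 to 87 and 1 to 56 with 1 library left out, the low ends without 1035+Doxo replicate 2 and the high ends without either Doxo library. Pathway genes higher (1) were 0 by DESeq2, 0 without both libraries and 0 to 1 with 1 left out. In 1035+Doxo against Doxo, pathway genes higher (17) were 11 by DESeq2 and 9 to 19 with 1 left out, the low end without 1035+Doxo replicate 1. In 1035+Doxo against DMSO they (13) were 8 by DESeq2 and 6 to 15, the low end without DMSO replicate 1. In the interaction, 3 genes were higher and 0 lower by edgeR; the lower count was 3 by the likelihood ratio test, 2 without both libraries and 12 with a replicate block. With 1 library left out the ranges were 1 to 64 and 0 to 175, the high ends without Doxo replicate 1, and 0 to 1 and 0 to 2 for pathway genes. The cause of these shifts was not tested.

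Same-numbered samples did not deviate together (correlations of -0.0863 to 0.0941 over 11469 genes), so the replicate numbers were not taken as pairs, and the block changed no call of a member. ASNS, CEBPB, CHAC1 and ERN1 had the fewest reads of the 10 genes, 104 to 331 per library; how far depth or the 2 libraries a group limit them was not tested.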
